A study of Homo sapiens with 4 samples.

Results

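The enzymes that turn arachidonic acid into leukotrienes and prostaglandins were followed in NCI-H1048, a cell line from human small cell lung cancer that the study assigns to the tuft cell-like subtype driven by the transcription factor POU2F3. The 10 genes, chosen by symbol, were ALOX5, ALOX5AP, LTC4S and LTA4H of the leukotriene branch and PTGS1, PTGS2, HPGDS, PTGES, TBXAS1 and HPGD of the prostanoid branch. All 10 were found among the 35979 gene symbols of the tables. Poly(A) RNA was sequenced from 4 libraries: 2 from cells given different guide RNAs (gRNAs) against COLCA2 (genotype label COLCA2 knockout), 1 from cells given a POU2F3 gRNA (POU2F3 knockout) and 1 from cells given a non-targeting gRNA (WT), called the control library below. No drug or other treatment is named for any group, and whether the edited cells were clones or pools is not given in the sources used here.

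Arachidonic acid is cut from membrane phospholipids by phospholipases A2. The lipoxygenase encoded by ALOX5, helped by the membrane protein that ALOX5AP encodes, converts it to leukotriene A4, from which LTA4H makes leukotriene B4 and LTC4S makes the cysteinyl leukotriene C4. The cyclooxygenases encoded by PTGS1 and PTGS2 open the other branch, which ends in prostaglandin D2 (HPGDS), prostaglandin E2 (PTGES) or thromboxane (TBXAS1). HPGD inactivates prostaglandins. Tuft cells, rare chemosensory epithelial cells, are known for leukotriene and prostaglandin synthesis, with ALOX5, ALOX5AP, LTC4S, PTGS1 and HPGDS among the genes that mark them. COLCA2 encodes a co-activator of POU2F3.

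The libraries held between 21587741 and 29632382 reads assigned to genes, recovered from the deposited normalized counts. The normalized count of POU2F3 was 14602 in the control library, 1449 with the POU2F3 guide, and 3677 and 2351 with COLCA2 guides 1 and 2. For COLCA2 it was 5585, 1393, 3119 and 3541. The control and POU2F3 groups have 1 library each, so differences from the control library have no replicate check on the control side, and on the targeted side only that of the second COLCA2 guide. The edgeR test given further on rests on the spread of that pair alone. A gene is called lower or higher below when it was at least 2-fold apart on the log2(normalized count + 1) scale, with both guides required for COLCA2. Intervals given for folds and levels are 95% exact intervals and reflect counting error alone. Reads that carry no molecular identifier may be copies of 1 molecule. The SD of the COLCA2 pair can fall below counting error and holds no error of the control library.

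In the control library the leukotriene branch was carried by ALOX5 and LTA4H, while ALOX5AP and LTC4S had few reads. Per kilobase of longest annotated transcript, ALOX5 had a normalized count of 2518 and LTA4H of 326. The size of this gap depends on the lengths used, 2506 bases for ALOX5 and 6109 for LTA4H. Before division by length the normalized counts were 6311 and 1993. HPGD followed with 74.5 and PTGS2 with 55.4. The counting intervals of this pair did not overlap (65.3 to 84.6 against 48.9 to 62.6), but they take the transcript lengths as exact. The order of this pair rests on those lengths, 3027 bases for HPGD and 4514 for PTGS2. Before division by length PTGS2 was the higher, at a normalized count of 250 against 225. TBXAS1 and LTC4S were not separable per kilobase, at 30.5 each. PTGES had 16.4, with an interval of 11.2 to 23.1 that overlapped the 20.4 to 43.8 of LTC4S. Before division by length these genes had normalized counts of 76.4, 27.7 and 30.6 for TBXAS1, LTC4S and PTGES. The LTC4S length, 909 bases, is from the primary assembly annotation. Its reads come from a row outside that annotation and may be only part of the gene's, so its level is uncertain. ALOX5AP had 6.24 and PTGS1 2.65 per kilobase, and HPGDS was listed at 0. In reads, ALOX5AP had 8, PTGS1 had 14 and HPGDS had 0 in this library. Of the 5 tuft-marking eicosanoid genes named above, only ALOX5 was abundant in this library.

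**Figure D1:**
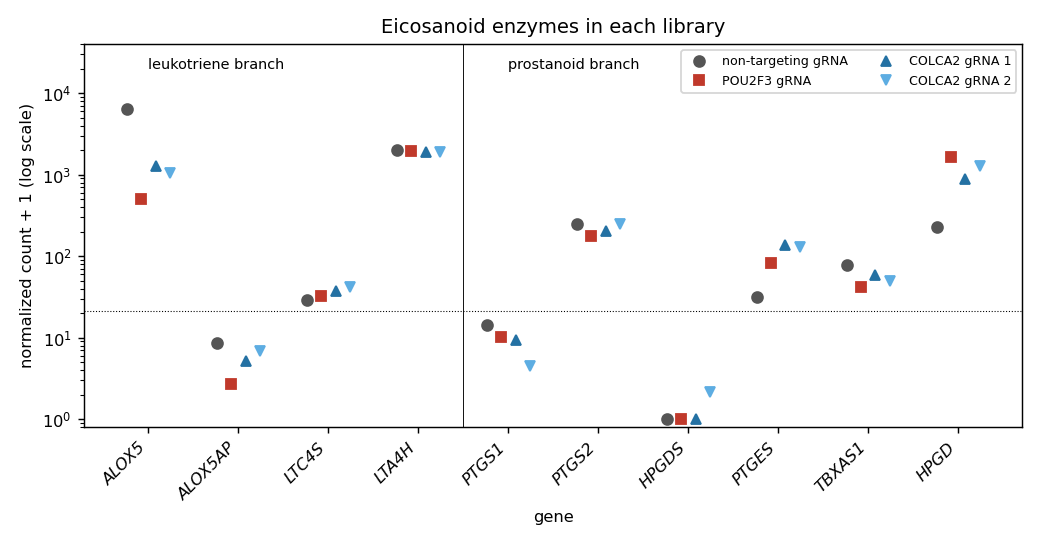
Normalized count + 1 of each gene on a log axis, with 1 symbol per library and a vertical line between the leukotriene and prostanoid branches. The dotted line marks a normalized count of 20, the minimum mean used for calls. ALOX5 in the control library lies above the other libraries, HPGD and PTGES in it lie below them, and ALOX5AP, PTGS1 and HPGDS stay under the line.

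ALOX5, which encodes the enzyme that commits arachidonic acid to leukotrienes, was lower in every targeted library. Its normalized count was 6311 in the control library, 506 with the POU2F3 guide, 1261 with COLCA2 guide 1 and 1046 with COLCA2 guide 2. The 3 targeted libraries lay far below the control, and the POU2F3 guide library lay below both COLCA2 libraries. With the POU2F3 guide the level was 8.02% of the control level (7.37% to 8.72%), which is 12.5-fold lower. It was 5.01-fold lower for COLCA2 guide 1 and 6.04-fold lower for COLCA2 guide 2, which average to a log2 ratio of -2.46 ± 0.19 (SD, n = 2). In bulk RNA, fewer cells with a transcript and less of it per cell cannot be told apart.

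These values are sums over a pair of rows that carry the symbol ALOX5. The row ENSG00000012779 is the gene on chromosome 10 (GRCh38), from 45374176 to 45446119 on the plus strand, and the row ENSG00000275565 is outside the GENCODE 29 primary assembly annotation. The second row held 68.7% of the ALOX5 signal in the control library, 37.5% with the POU2F3 guide, 100% with COLCA2 guide 1 and 30.1% with COLCA2 guide 2. The first row alone had normalized counts of 1973, 316, 0 and 730 in the control, POU2F3, COLCA2 guide 1 and COLCA2 guide 2 libraries. The second had 4338, 190, 1261 and 315. Each row alone was lower in every targeted library, but the division between the rows differed from library to library. With COLCA2 guide 1 the 0 of the first row goes with 100% in the second. The rows are therefore not independent readings of the gene, and the size of the difference cannot be read from either row by itself.

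**Figure D2:**
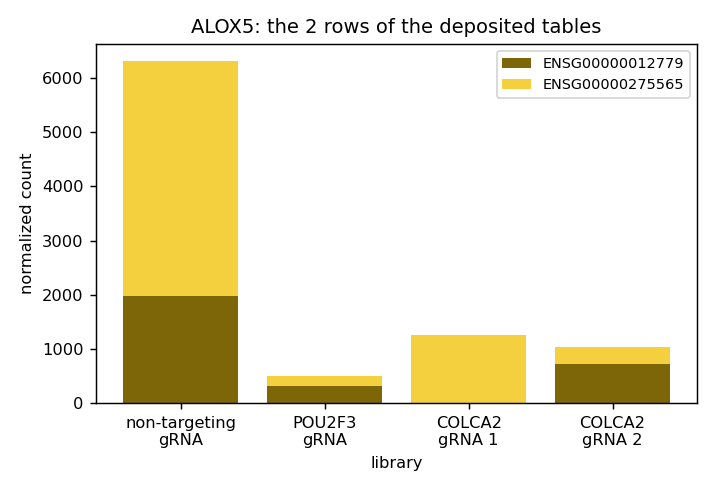
Normalized count of ALOX5 in each library, stacked by the 2 rows that carry the symbol. The whole bar stands at 6311 for the control and at 506 for the POU2F3 guide, and with COLCA2 guide 1 all of it lies in ENSG00000275565.

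ALOX5AP, the partner protein that presents arachidonic acid to the lipoxygenase, had 8 reads in the control library, 2 with the POU2F3 guide, and 4 and 5 with COLCA2 guides 1 and 2. The ratio with the POU2F3 guide was 0.220, but its interval of 0.0227 to 1.10 includes no difference, so a change was not detectable at this depth. LTC4S, which conjugates leukotriene A4 with glutathione, had 29 reads in the control library, 37 with the POU2F3 guide and 35 with each COLCA2 guide. The LTC4S interval with the POU2F3 guide, 0.671-fold to 1.89-fold, included equal levels. The only LTC4S row, ENSG00000283887, is outside the GENCODE 29 primary assembly annotation, so its reads may be only part of the gene's. LTA4H, the hydrolase that makes leukotriene B4, had normalized counts of 1993 in the control library, 1950 with the POU2F3 guide, and 1899 and 1909 with COLCA2 guides 1 and 2. The 4 libraries were within a few percent of each other, with log2 ratios of -0.032 for the POU2F3 guide and -0.066 ± 0.005 (SD, n = 2) for the COLCA2 guides. At 0.978-fold (0.922 to 1.04) the counting interval for the POU2F3 guide excludes a 2-fold difference. The counting intervals for COLCA2 guides 1 and 2, 0.895 to 1.02 and 0.897 to 1.02, are wider than the SD of that pair. Exons of LTA4H overlap those of the antisense genes AC007298.1 and AC007298.2, and use of the strand in counting is not given.

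HPGD, the 15-hydroxyprostaglandin dehydrogenase that starts prostaglandin breakdown, lies on the minus strand of chromosome 4 at 174490177 to 174523154 and was higher in every targeted library. Its normalized count was 225 in the control library, 1647 with the POU2F3 guide, 877 with COLCA2 guide 1 and 1267 with COLCA2 guide 2. The control library was the lowest of the 4 and the POU2F3 guide library the highest. The POU2F3 guide level was 7.31-fold the control level (6.38 to 8.40), and the COLCA2 guides averaged a log2 ratio of 2.22 ± 0.37 (SD, n = 2). HPGD thereby passed ALOX5 per kilobase with the POU2F3 guide, at 544 against 202. With COLCA2 guide 2 HPGD and ALOX5 were at 418 and 417 per kilobase, which is no difference beyond counting error for the lengths used. Before division by length HPGD was the higher there, at 1267 against 1046. With COLCA2 guide 1 ALOX5 stayed above per kilobase, at 503 against 290.

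PTGES, the inducible microsomal prostaglandin E synthase, lies on the minus strand of chromosome 9 at 129738331 to 129753047 and was also higher in all 3 targeted libraries. Its normalized count was 30.6 in the control library, from 32 reads, 82.3 with the POU2F3 guide, 137 with COLCA2 guide 1 and 127 with COLCA2 guide 2. Both COLCA2 guides lay above the POU2F3 guide for PTGES, where for HPGD both lay below it. For PTGES the COLCA2 guides were not separable from each other, at 1.08-fold for guide 1 to guide 2 (0.829 to 1.40). PTGES was 2.69-fold higher with the POU2F3 guide (1.79 to 4.15), and the mean log2 ratio of the COLCA2 guides was 2.07 ± 0.076 (SD, n = 2).

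**Figure D3:**
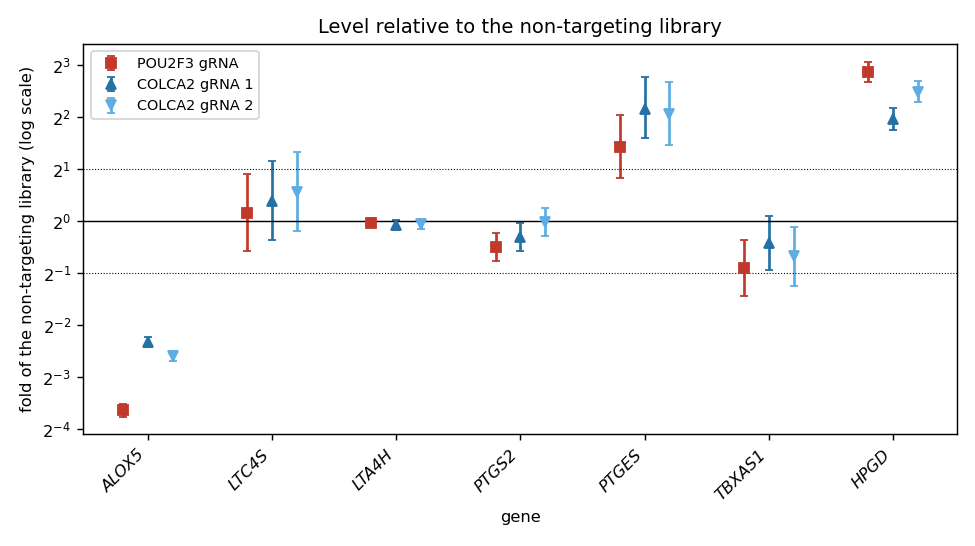
Level of the 7 genes past the minimum in each targeted library as a fold of the control library, on a log axis; bars are 95% exact counting intervals and dotted lines mark 2-fold. ALOX5 lies below the lower line and PTGES and HPGD above or across the upper line in all 3 libraries, while LTA4H lies at 1.

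The cyclooxygenase genes did not reach 2-fold where their counts allow a reading. PTGS2, the inducible cyclooxygenase, had normalized counts of 250 in the control library, 177 with the POU2F3 guide, and 202 and 248 with COLCA2 guides 1 and 2. COLCA2 guide 2 was level with the control library and the other 2 lay below it. With the POU2F3 guide PTGS2 was at 0.708-fold (0.588 to 0.852), and the COLCA2 guides gave a mean log2 ratio of -0.16 ± 0.21 (SD, n = 2), less than their own spread. PTGS1, the constitutive cyclooxygenase, had 14 reads in the control library, 11 with the POU2F3 guide and 8 and 3 with the COLCA2 guides. Only the interval of COLCA2 guide 2 for PTGS1 lay below equal levels, at 0.264-fold (0.0486 to 0.946). TBXAS1, the thromboxane synthase, had normalized counts of 76.4 in the control library, 41.1 with the POU2F3 guide, and 57.0 and 48.2 with COLCA2 guides 1 and 2. TBXAS1 was highest in the control library, at log2 ratios of -0.88 for the POU2F3 guide and -0.53 ± 0.17 (SD, n = 2) for the COLCA2 guides, none of them 2-fold. HPGDS, the prostaglandin D synthase of tuft and mast cells, had 1 read in all, with COLCA2 guide 2. For a count of 0 the limit used is 3 reads, in place of an exact interval, which in the control library is a normalized count of 2.86. All 4 libraries lay under that limit of 3 reads, so no fold is given.

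Of the 10 genes 7 had a mean normalized count of at least 20 over the 4 libraries, and ALOX5AP, PTGS1 and HPGDS did not. With the POU2F3 guide 1 of the 7 was lower, ALOX5, where 3.05% of all 14940 genes past the minimum were, and 2 were higher, PTGES and HPGD, where 6.73% of all genes were. With both COLCA2 guides the counts were again 1 lower and 2 higher, against 2.02% and 5.79% of all genes. ALOX5 was lower in all 3 targeted libraries, where 1.5% of all genes were, and PTGES and HPGD were higher in all 3, where 4.89% of all genes were. The comparisons share their control library. Over the 7 genes the median log2 ratio was -0.032 with the POU2F3 guide, -0.069 with COLCA2 guide 1 and -0.012 with COLCA2 guide 2, beside -0.0037, -0.0052 and -0.0017 over all genes. The list as a whole did not move in one direction: 1 member was lower, 2 were higher and 4 lay within 2-fold.

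edgeR's quasi-likelihood test on the recovered reads, with Benjamini-Hochberg adjustment over all 14940 genes, takes its whole estimate of the spread from the COLCA2 pair and compares these libraries rather than the conditions. It gave ALOX5 an adjusted p of 7.1e-05 for the POU2F3 guide and 6.5e-05 for the COLCA2 guides. The edgeR adjusted p of HPGD was 0.00084 and 0.0013. For PTGES edgeR gave an adjusted p of 0.059 with the POU2F3 guide, which misses 0.05, and 0.0083 with the COLCA2 guides. By edgeR 3.98% of all genes were lower and 8.45% higher with the POU2F3 guide, and 7.51% and 11.4% with the COLCA2 guides. No other of the 7 genes passed 0.05 in either comparison.

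The POU2F3 guide library was compared with the COLCA2 libraries directly, which leaves out the control library. ALOX5 was the one gene of the 7 at least 2-fold lower than with both COLCA2 guides, where 0.924% of all genes were. It was at 0.401-fold of COLCA2 guide 1 (0.364 to 0.443) and 0.484-fold of COLCA2 guide 2 (0.436 to 0.537). The interval for guide 2 reaches past the 2-fold limit. Its log2 ratio was -1.31 to COLCA2 guide 1 and -1.05 to COLCA2 guide 2, against 0.27 between the COLCA2 guides, and the edgeR adjusted p was 0.037, where edgeR called 0.234% of all genes lower. The second ALOX5 row alone does not reach 2-fold against both COLCA2 guides, whose values were 1261 and 315, and in the first row COLCA2 guide 1 is listed at 0, below the POU2F3 guide. By the 2-fold rule 0 of the 7 genes were higher, where 0.442% of all genes were. edgeR called 0 higher as well, where it called 0.107% of all genes, and 1, HPGD, had an unadjusted p under 0.05, with log2 ratios of 0.91 and 0.38 to the COLCA2 guides and an edgeR adjusted p of 0.25. PTGES had log2 ratios of -0.73 and -0.62 to COLCA2 guides 1 and 2, with an edgeR adjusted p of 0.41.

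The remaining genes of the pathway were taken from a list of 59, of which 58 were in the tables and 33 passed the minimum. With the POU2F3 guide 2 of the 33 were lower and 6 higher, and with both COLCA2 guides 2 were lower and 5 higher, beside the 3.05%, 6.73%, 2.02% and 5.79% of all genes given above. Their median log2 ratio was 0.089 with the POU2F3 guide, 0.16 with COLCA2 guide 1 and 0.19 with COLCA2 guide 2.

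Both lower genes encode phospholipases A2, the enzymes that release arachidonic acid. PLA2G4A, the cytosolic phospholipase A2, had 3662 reads in the control library, 551 with the POU2F3 guide, and 1147 and 748 with COLCA2 guides 1 and 2. Its level was thus 13.2% of the control level with the POU2F3 guide and 34.0% and 25.2% with the COLCA2 guides, the same order of libraries as ALOX5. The secreted enzyme gene PLA2G3 had 123 reads in the control library, 56 with the POU2F3 guide, and 38 and 34 with COLCA2 guides 1 and 2. PLA2G3 had a log2 ratio of -1.30 with the POU2F3 guide and -1.54 ± 0.015 (SD, n = 2) with the COLCA2 guides. At 38 and 34 reads counting error is larger than this SD. With the POU2F3 guide edgeR did not call PLA2G3 lower. The other 4 phospholipase genes past the minimum (PLA2G4B, PLA2G4C, PLA2G6 and PLA2G7) were not called in either comparison. With COLCA2 guide 2 alone PLA2G4B and PLA2G6 would be called. PLA2G4B was at 2.66-fold (1.88 to 3.82) with that guide and at 1.40-fold (0.946 to 2.07) with COLCA2 guide 1.

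SLCO2A1, the transporter that takes prostaglandins up for breakdown by HPGD, had 29 reads in the control library, 164 with the POU2F3 guide, and 94 and 108 with COLCA2 guides 1 and 2. It was 4.97-fold higher with the POU2F3 guide (3.33 to 7.65), and its mean log2 ratio with the COLCA2 guides was 1.97 ± 0.27 (SD, n = 2). The prostaglandin E2 receptor genes PTGER2 and PTGER4 were both higher. PTGER2 had 43 reads in the control library, 157 with the POU2F3 guide, and 121 and 122 with the COLCA2 guides. PTGER4 had 106, 313, 261 and 322 reads in the same order. The other 3 prostanoid receptor genes past the minimum (PTGER3, PTGIR and TBXA2R) and the 3 leukotriene receptor genes past it (CYSLTR1, LTB4R and LTB4R2) were not called. ALOX12, the 1 of 5 other lipoxygenase genes past the minimum, was not called either. AKR1C3, an aldo-keto reductase with prostaglandin F synthase activity and close paralogs that can share its reads, was 2.62-fold higher with the POU2F3 guide and averaged a log2 ratio of 1.96 ± 0.19 (SD, n = 2) with the COLCA2 guides. CYP4F11, a fatty acid hydroxylase with near paralogs, had 10 reads in the control library, 34 with the POU2F3 guide, and 41 and 27 with the COLCA2 guides. Its control level was below the minimum mean of 20, so CYP4F11 passed only through the targeted libraries. A gene this low in the control library can enter the calls only by being higher elsewhere, so its call as higher is no separate evidence. PTGDS, the lipocalin-type prostaglandin D synthase, was higher with the POU2F3 guide only by the 2-fold rule, at log2 ratios of 1.22 against 0.77 and 0.64 with the COLCA2 guides. The difference of PTGDS between the POU2F3 guide and the COLCA2 guides had an edgeR adjusted p of 0.60. By the 2-fold rule 8 of the 33 genes were called in at least 1 of the comparisons with the control library, where 11.2% of all genes were. edgeR also called 8, a share near the 20.8% of all genes that it called in this way, and 6 genes were called by both. PTGDS and CYP4F11 were called by the 2-fold rule alone, and PTGR1 and MGST3 by edgeR alone.

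**Figure D4:**
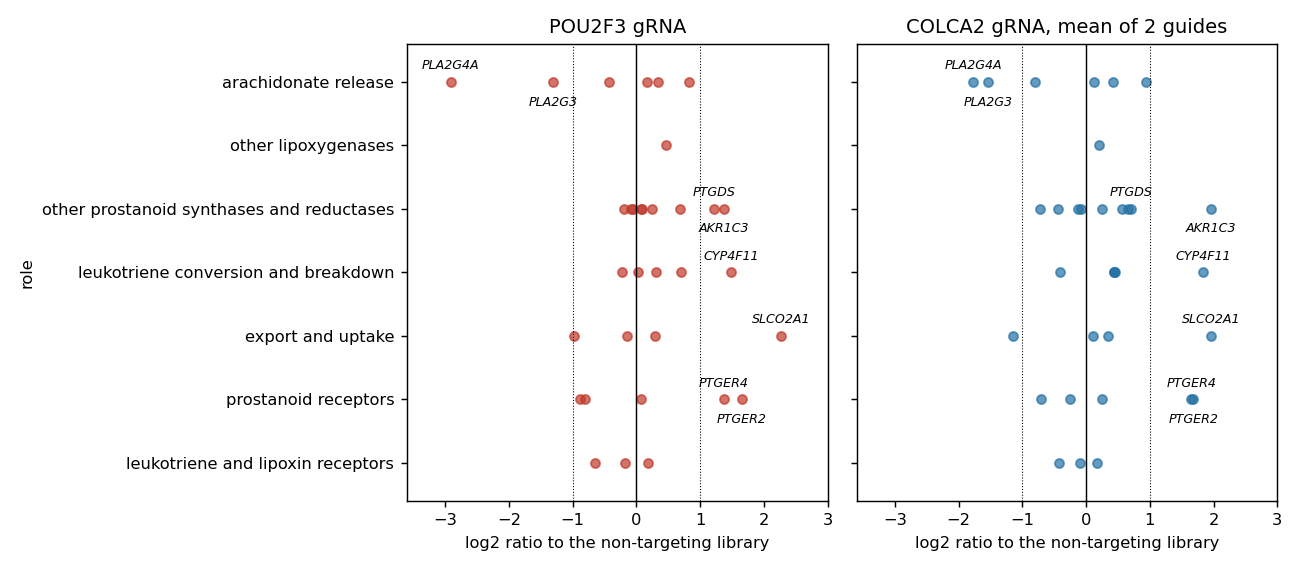
Log2 ratio to the control library of the 33 other pathway genes past the minimum, by role, for the POU2F3 guide (left) and for the mean of the COLCA2 guides (right). Each point is 1 gene, dotted lines mark 2-fold, and the 8 named genes are those called in either comparison. PLA2G4A and PLA2G3 lie to the left, and SLCO2A1, PTGER2, PTGER4, AKR1C3, CYP4F11 and PTGDS to the right.

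The sequence before the start of PTGES, which was higher, is shown with that of PLA2G4A, which was lower, because both moved in all 3 libraries in opposite directions. Both are RefSeq sequences of GRCh38.p14 that run 5′ to 3′ on the gene's strand from 250 to 11 bases before the start. Capitals mark GC boxes (GGGCGG, or CCGCCC on the other strand).
PTGES, chr9:129753053-129753292, minus strand: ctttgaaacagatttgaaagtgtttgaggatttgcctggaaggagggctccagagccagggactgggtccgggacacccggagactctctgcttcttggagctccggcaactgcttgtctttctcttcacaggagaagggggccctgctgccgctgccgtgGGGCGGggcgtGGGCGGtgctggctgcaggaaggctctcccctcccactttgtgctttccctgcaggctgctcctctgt
PLA2G4A, chr1:186828699-186828938, plus strand: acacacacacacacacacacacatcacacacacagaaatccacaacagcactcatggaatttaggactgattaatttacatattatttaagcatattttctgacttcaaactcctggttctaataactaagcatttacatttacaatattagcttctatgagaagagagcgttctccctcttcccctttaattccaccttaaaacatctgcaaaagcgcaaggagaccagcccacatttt
PTGES had 2 GC boxes in this stretch and PLA2G4A had 0. The octamer ATGCAAAT (ATTTGCAT on the other strand), the motif that POU factors of this class bind, was in neither. RefSeq start windows were found for 9 of the 10 eicosanoid enzyme genes, all but ALOX5, with 11 windows in all. The octamer was in 0 of these 11 windows of 250 bases and in 1.63% of all 35116, and GC boxes were in 5 of the 11 and in 42.6% of all. The motifs do not overlap each other.

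For the 3 called genes, the genes with the most similar log2 ratios were sought among 12155 genes with a mean of at least 100, by Euclidean distance over the 3 ratios, which share 1 control. Nearest to ALOX5 were ENPP2 (distance 0.43), POU2F3 itself (0.45) and GFI1B (0.52). ENPP2, which encodes autotaxin, a lysophospholipase D that makes lysophosphatidic acid, had normalized counts of 4607 in the control library, 285 with the POU2F3 guide, and 849 and 867 with COLCA2 guides 1 and 2. GFI1B, a tuft cell transcription factor, had 1899, 181, 520 and 315. Nearest to PTGES were LGALS1 (0.071), LYPD6B (0.080) and HMOX1 (0.12), which encodes heme oxygenase. Nearest to HPGD were OLFM3 (0.13), FRMD6 (0.16) and NRXN2 (0.18).

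Markers of tuft cells and of cells that a culture could hold besides the tumour cells were read beside these genes. Of 17 tuft markers 15 passed the minimum. Of these 11 were lower with the POU2F3 guide and 9 with both COLCA2 guides, where 3.05% and 2.02% of all genes were, and none was higher. The summed normalized count of all 17 was 51944 in the control library, 12554 with the POU2F3 guide, and 17765 and 13875 with COLCA2 guides 1 and 2. The list includes POU2F3, the gene that the POU2F3 guide targets, which is among the lower genes in both counts. POU2F3 and the tuft marker SOX9 held 14602 and 17848 of the sum in the control library. With the POU2F3 guide they held 1449 and 7566. ALOX5 and PLA2G4A had the same order of libraries as this sum, and its part in their levels was not tested. Of 14 leukocyte markers 3 passed the minimum and 4, TYROBP, CD3E, TPSAB1 and CPA3, were at 0 in all 4 libraries. The 3 went different ways. CD68 had normalized counts of 72.6 in the control library, 139 with the POU2F3 guide, and 209 and 200 with COLCA2 guides 1 and 2, and was called higher with both COLCA2 guides. CD163 had 44.9, 42.8, 17.6 and 18.8 in the same order and was called lower with both COLCA2 guides. LYZ, at 72.6, 61.3, 45.6 and 48.2, was not called. PTPRC, below the minimum, had 17 reads in the control library, 10 with the POU2F3 guide and 8 with each COLCA2 guide. Others below the minimum went different ways. ITGAM had 0 reads in the control library, 16 with the POU2F3 guide, and 32 and 12 with COLCA2 guides 1 and 2. In the same order, CD14 had 9, 17, 6 and 9 reads and FCER1G had 9, 15, 12 and 10. MS4A2 had 20, 23, 23 and 14 reads and SPI1 had 4, 3, 6 and 8. The summed normalized count of the leukocyte list ranged from 246 in the control library to 363 with COLCA2 guide 1, and the part of these markers in the ALOX5 level was not tested. Of 7 fibroblast markers 6 passed, and 3 were higher with the POU2F3 guide and 3 with both COLCA2 guides, where 6.73% and 5.79% of all genes were. Their sum was 1391 in the control library and between 1798 and 2185 in the targeted ones, and its part in the higher levels of HPGD and PTGES was not tested.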

How the data were processed

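RNA sequencing of poly(A)-selected RNA gave 1 table per library. The deposited values are, per the file headers, normalized counts per gene, a linear signal. The submitters' processing notes name Salmon, DESeq2 and hg38. Their roles and versions, the annotation and the use of the strand are not given in the sources used here. Dividing each library by its smallest value above 0 made 100% of its values whole within 0.001, so whole reads, which may be rounded estimates, were recovered (21587741 to 29632382 per library). The read totals set the counting precision. Rows of the same symbol were summed. Ratios used a pseudocount of 1, and genes with a mean of at least 20 (14940) entered the calls at 2-fold. Gene positions and lengths come from GENCODE 29 (GRCh38).

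Named genes are the 10 enzymes, the targeted genes, listed pathway genes past the minimum and 2-fold apart with the POU2F3 guide or both COLCA2 guides, and the 3 nearest genes in log2 ratio for each enzyme gene called in all 3 libraries. Pathway genes named as not called, the pair called by edgeR alone and the leukocyte markers were named after their values were seen. Members and lists were chosen with earlier results of these data known. Samples were grouped by their titles. The COLCA2 libraries differ in their guide, per the series' design text, and no guide was repeated, so p-values rest on the spread between this pair alone. With 3 libraries against 1 an exact permutation test cannot go below 0.25, so none was used. edgeR 4.0.16 (R 4.3.3; quasi-likelihood test, TMM, 3 groups, 1 residual degree of freedom from the COLCA2 pair) was run on the recovered reads, and the scripts were tested on simulated data. Alternatives were 3 scalings (TMM, DESeq2 1.42.0 size factors, equal totals), pseudocounts of 0.1 and 10, no minimum or a minimum of 100, a 4-fold threshold, 1 row per symbol and leaving out each guide. The lowest row of a symbol was an alternative added after seeing the data.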

Additional observations from a re-analysis of the deposited data

Results flagged for a closer look

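ALOX5 was singled out because the POU2F3 guide library differed from the COLCA2 libraries when they were compared directly. The edgeR log2 ratio of the POU2F3 guide to the COLCA2 guides was -1.18. The POU2F3 guide library was below both of the 2 COLCA2 libraries. This comparison has 1 library on the POU2F3 side, so it compares libraries rather than the targeted genes. The ALOX5 value sums a pair of rows whose shares differ between libraries.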

How the results depend on the processing

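No paired analysis was possible because only the COLCA2 titles carry numbers, which name the guides. Counts of the enzymes lower or higher were the same under the 3 scalings, both pseudocounts and without either COLCA2 guide. A 4-fold threshold left 1 enzyme higher with the POU2F3 guide (HPGD), 1 higher with both COLCA2 guides (PTGES), 0 lower with the POU2F3 guide than with both COLCA2 guides, and 2 of the other pathway genes. A minimum mean of 100 left out PTGES, which gave 1 enzyme higher with the POU2F3 guide and 1 with both COLCA2 guides, and 4 pathway genes. Without a minimum ALOX5AP joined the enzymes lower with the POU2F3 guide, which made 2, and 18 pathway genes were called. edgeR called 1 enzyme higher with the POU2F3 guide. With the highest row of each symbol 0 enzymes were lower with the POU2F3 guide than with both COLCA2 guides. That row gave ALOX5 log2 ratios of -4.51 for the POU2F3 guide and -2.78 for the COLCA2 pair. With the lowest row, an alternative chosen after seeing the data, these were -2.64 and -6.19, and the log2 ratio of the POU2F3 guide to the COLCA2 guides turned to 3.55, since that row was listed at 0 with COLCA2 guide 1. Scaling moved the median of all genes by less than 0.1. Depth limits ALOX5AP, PTGS1 and HPGDS, at 14 reads or fewer in each library.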
